A study of Macaca mulatta with 5 samples.

Results

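At 40 places in a rhesus monkey (Macaca mulatta) long noncoding RNA (lncRNA) catalogue, 2 or more transcripts were listed on the same strand with the same first and the same last base. These isoforms made up 85 of the 1404 listed transcripts, at 40 of 1356 distinct positions. The rule for choosing them used coordinates alone, though it was set with earlier results of these data known. Every row whose chromosome, strand, start and end equalled those of another row was taken, which gave 91 rows at 43 positions. A cluster on chromosome 7 with 6 of these rows at 3 positions, between bases 164792904 and 164877311, was left out. Of the 40 positions, 37 had 2 isoforms, 1 had 3 and 2 had 4.

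RNA of embryonic stem cells, labelled rESC, was compared with RNA of cells labelled R_NSCP1, a name the labels do not spell out, in a series on how embryonic stem cells take a neural fate. Each had 1 lncRNA library, made from total RNA freed of ribosomal RNA with a kit that keeps the strand, and 1 library of MeDIP-seq, which sequences sheared DNA after an antibody has captured its methylated fragments. No treatment, time point, passage or line is given for either, and the cell type label of both reads embryonic stem cell. The files carry no gene names or exons, so neither label was checked against marker genes and positions were not assigned to genes, exons or introns. With 1 library per cell type there are no replicates, and every difference below is a difference between 2 libraries with no test. In bulk libraries such as these, fewer cells with a transcript and less of it per cell cannot be told apart. Levels are in FPKM, fragments per kilobase of transcript scaled to library size, as the authors deposited them, and the depth behind them is unknown.

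Transcripts that begin and end at the same bases can still differ in what lies between, because the spliceosome can skip an exon, keep an intron or use another splice site. Many lncRNAs are spliced into several such forms, and the balance of forms can differ between cell types while the gene as a whole is read at the same rate. Short sequencing fragments that fall in parts common to the isoforms cannot be assigned to one of them directly, and the level of each isoform is then an estimate. The table gives no exons, so the isoforms of a position are told apart here only by their values, and no sequence of theirs could be shown. The share of an isoform is its FPKM as a percentage of the summed FPKM of its position. A share is taken within 1 library, so it does not depend on how the libraries were scaled to each other, whereas a summed FPKM does.

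The 40 positions lay on 17 assembled chromosomes, with 4 on unplaced scaffolds and 3 on chromosome X, and 17 were on the plus strand and 23 on the minus strand. They spanned a median of 5764 bp, with quartiles of 3073 and 18546 bp, against a median of 4185 bp and quartiles of 1777 and 11538 bp over all positions of the table. The longest, at chr15:48765322-49525113 (plus strand), spanned 759792 bp and was also the longest of the whole table. The shortest, on a scaffold, spanned 456 bp. Of the 85 isoforms, 77 reached an FPKM of 0.1 in one library or both, and 4 were listed at 0 in both, among them both isoforms of chr16:31884026-31895082 (plus strand).

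Listed zeros were common among these isoforms. In rESC 14 of 85 (16.5%) and in R_NSCP1 17 of 85 (20%) were listed at 0, against 11.1% and 4.99% of all listed transcripts. Other isoforms stood at values as small as 1.18e-05. A value this low, like a value of 0, is read here only as what the estimate gave.

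At 30 positions the summed FPKM reached 1 in both libraries, and isoform shares were compared there. The main isoform, the one with the highest FPKM, was the same in rESC and R_NSCP1 at 23 of these positions and differed at 7 (23.3%). As a background, 46 groups of transcripts that shared only the lower of their 2 end coordinates were treated in the same way, and the main transcript differed at 20 of them (43.5%). Among 39 groups that shared only the higher coordinate it differed at 18 (46.2%). Limited to pairs, the counts were 7 of 27 for isoforms with both ends shared, 15 of 38 for a shared lower coordinate and 15 of 32 for a shared higher coordinate. At these settings, transcripts that share both ends thus changed their order at a smaller share of places than transcripts that share one end, a difference that was not tested. Without positions that had an isoform listed at 0, the main isoform differed at 6 of 18. The groups sharing one end were not recounted in this way, so how far the contrast depends on listed zeros is not known.

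The part of a position's FPKM that lay with another isoform in R_NSCP1 than in rESC was taken as the sum of the increases in share, which equals the sum of the decreases. Its median over the 30 positions was 23.2 percentage points, with quartiles of 8.22 and 37.2. It was under 10 points at 9 positions, at least 25 points at 13 and at least 50 points at 4. For pairs of isoforms the median was 23.1 points, against 17.8 points for pairs sharing only the lower coordinate and 22.3 points for pairs sharing only the higher one. By this measure the medians of the 3 kinds of pairs lay within a few points of each other, and their differences were not tested.

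**Figure D1:**
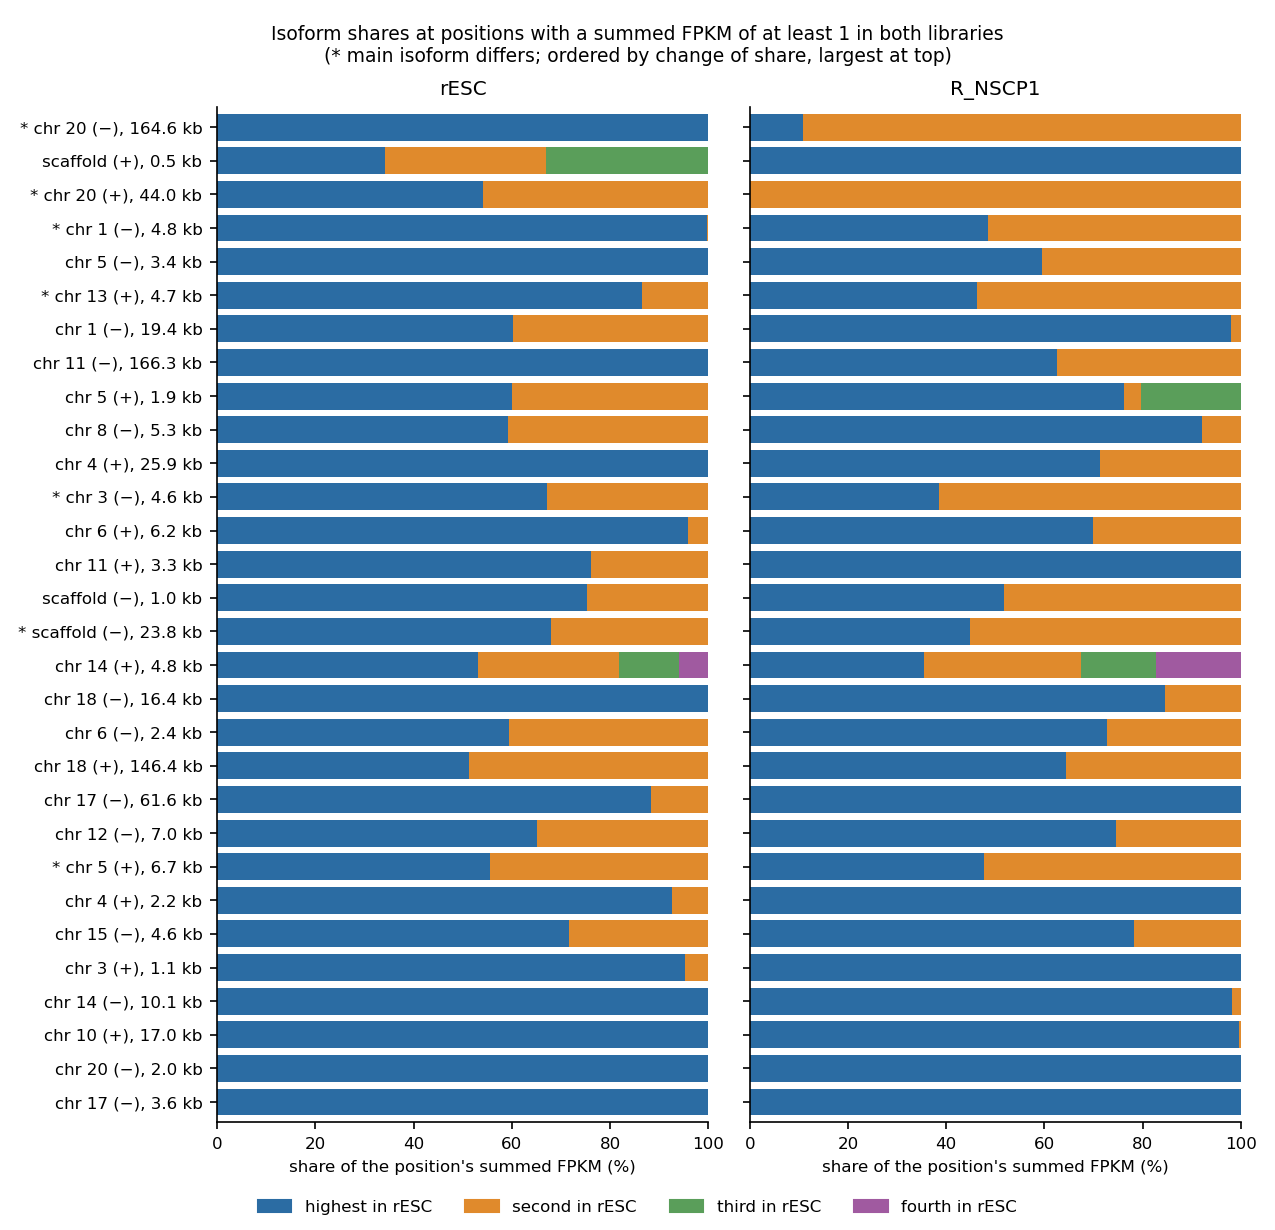
Each bar is 1 of the 30 positions with a summed FPKM of at least 1 in both libraries, split by the share of each isoform in rESC (left) and R_NSCP1 (right), in percent; colours follow the order of the isoforms in rESC, and labels give chromosome, strand and span. Asterisks mark the 7 positions whose main isoform differed; the top bar, on chromosome 20, goes from 100% blue in rESC to 10.9% in R_NSCP1.

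The clearest exchange was at chr20:85425246-85589866 (minus strand), a span of 164621 bp. The FPKM of one isoform was 2.42 in rESC but 0.374 in R_NSCP1; the other was listed at 0 in rESC and stood at 3.04 in R_NSCP1. The main isoform thus held 100% of the position in rESC and 10.9% in R_NSCP1, a change of 89.1 points, while the summed FPKM was 2.42 and 3.41, within 2-fold. It was the only position at which the main isoform differed and was at least 2-fold above the next one in both libraries, a condition that 13 of the 30 positions met.

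A second position of chromosome 20, chr20:30017827-30061786 (plus strand), had near-equal sums (3.19 in rESC and 3.28 in R_NSCP1) but another makeup. One isoform stood at 1.73 in rESC and 0.00312 in R_NSCP1, the other at 1.47 and 3.28. The shares in rESC were 54.1% and 45.9%, so the position went from a nearly even mix to 99.9% of a single isoform.

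At chr1:134317044-134321870 (minus strand) the reverse was seen. One isoform stood at 4.78 in rESC against 2.78 in R_NSCP1, the other at 0.00851 against 2.95. The position was 99.8% one isoform in rESC and an even mix in R_NSCP1, where the second held 51.5%, a change of 51.3 points with summed FPKM values of 4.79 and 5.73. The main isoform differed here by a narrow margin in R_NSCP1.

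The other places with a different main isoform were closer to ties or changed in level too. At chr13:37293389-37298114 (plus strand) the isoforms stood at 19.3 and 3.01 in rESC and at 0.784 and 0.908 in R_NSCP1. Both were lower in R_NSCP1, the main rESC isoform by 24.6-fold and the other by 3.31-fold, and the order in R_NSCP1 rests on values under 1. At chr3:47782463-47787073 (minus strand) the isoforms stood at 4.41 and 9.02 in rESC and at 11.9 and 7.51 in R_NSCP1, a change of 28.6 points. This was the only position with a different main isoform among the 9 whose summed FPKM reached 5 in both libraries.

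A 23753 bp position on a scaffold had isoforms at 2.22 and 1.05 in rESC and at 1.39 and 1.71 in R_NSCP1, a change of 23.1 points. At chr5:47001262-47007972 (plus strand) the isoforms stood at 2.83 and 3.52 in rESC and at 1.72 and 1.57 in R_NSCP1. There the shares moved by 7.76 points, and both libraries were near an even split.

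**Figure D2:**
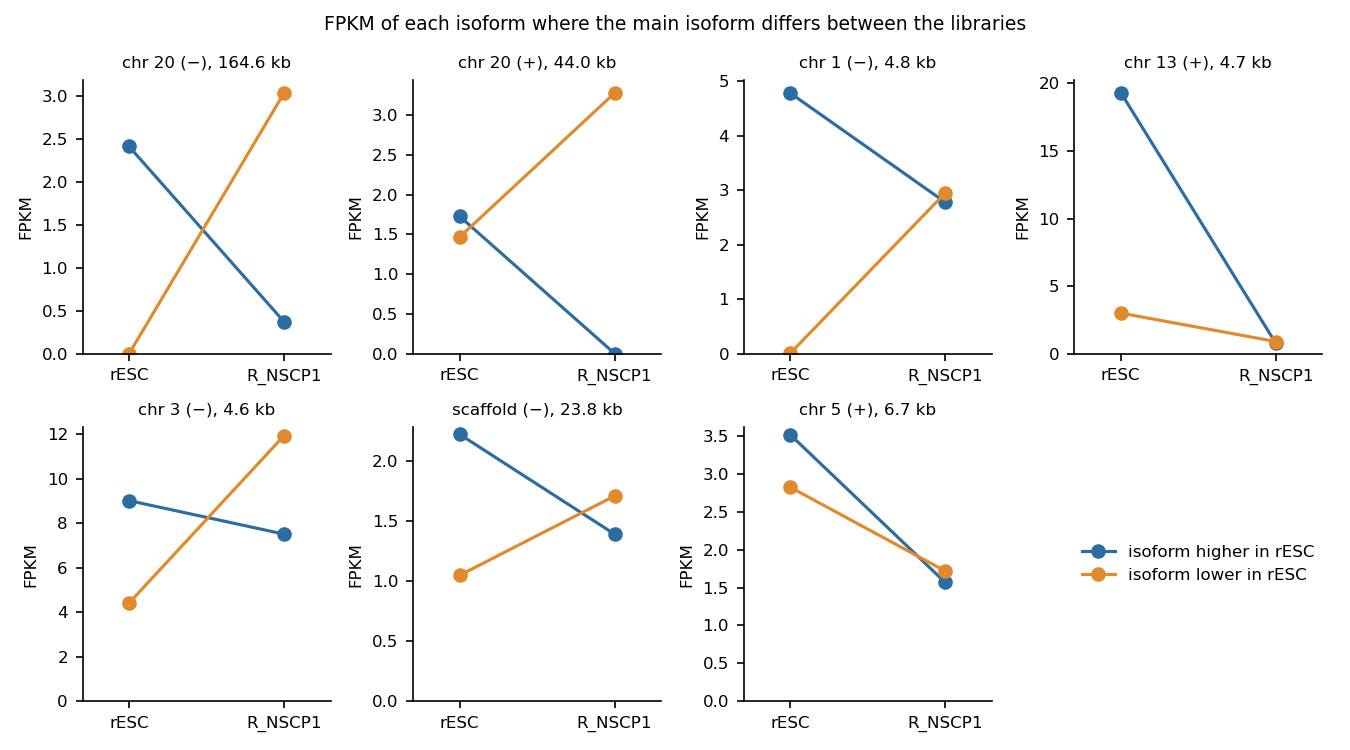
FPKM of both isoforms in rESC and R_NSCP1 at the 7 positions whose main isoform differed, 1 panel each with its own linear axis from 0; points are single libraries, joined by isoform, and blue marks the isoform that was higher in rESC. The lines cross steeply on chromosome 20 and barely on chromosome 5, where the shares moved by 7.76 points.

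Where the main isoform differed, the summed level mostly stayed within 2-fold. Of the 7 positions, 1 (chromosome 13) differed by 2-fold or more in summed FPKM, against 11 of the 23 that kept their main isoform. The median absolute log2 difference of the sums was 0.48 and 0.96. These groups were formed from the same FPKM values, so the figures are a description only.

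A position could also keep its main isoform and still change much in makeup. On a 456 bp scaffold position with 3 isoforms, rESC values were 10.3, 9.93 and 9.93 and R_NSCP1 values 5.59, 0 and 0, so the position went from an even mix (34.1% for the main isoform) to a single isoform. Its last 2 isoforms had identical values in both libraries, and whether they are 1 transcript listed again was not tested; counted once, the main isoform held 50.8% in rESC and the change was 49.2 points instead of 65.9. At chr5:74292442-74295832 (minus strand), one isoform stood at 1.24 and 1.66 and the other at 0.000309 and 1.13, a change of 40.6 points. At chr1:6854133-6873486 (minus strand), one isoform stood at 3.62 and 2.54 and the other at 2.39 and 0.0525, so that the main isoform went from 60.3% to 98.0%. At chr8:71374530-71379844 (minus strand), one stood at 3.48 and 1.63 and the other at 2.39 and 0.140, and the main isoform went from 59.3% to 92.1%.

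The positions with 4 isoforms behaved differently from each other. At chr14:11534628-11539436 (plus strand) the rESC values were 17.6, 9.52, 4.05 and 1.99 and the R_NSCP1 values 3.39, 3.07, 1.46 and 1.66. All 4 were lower in R_NSCP1, the more abundant ones by more, and the share of the main isoform was 53.0% and 35.4%. At chr5:3204854-3206713 (plus strand) the rESC values were 0, 2.52, 0 and 1.67 and the R_NSCP1 values 1.11, 4.14, 0.000434 and 0.182. The main isoform held 60.1% and 76.2%, while the second-ranking place passed from one isoform to another.

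Some positions were nearly pure in both libraries. A single isoform held at least 95% of the FPKM in both at 5 positions, in rESC only at 7, in R_NSCP1 only at 6 and in neither at 12. The main share was higher in rESC at 15 of the 30 positions and higher in R_NSCP1 at 14, so neither cell type was more mixed by this count. Over all positions with a summed FPKM of at least 1 in the library, the median share of the main isoform was 75.6% in rESC (34 positions) and 74.6% in R_NSCP1 (35 positions). Limited to positions with exactly 2 isoforms, these medians lay further apart, at 86.5% in rESC and 73.7% in R_NSCP1. The 5 positions pure in both were at chr17:74650644-74654233 (minus strand), chr20:88031606-88033580 (minus strand), chr10:5603651-5620644 (plus strand), chr14:9171966-9182049 (minus strand) and chr3:115703566-115704650 (plus strand). The last 2 were the most abundant of all 40.

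Single isoforms crossed from near 0 to a clear level in both directions. An isoform under an FPKM of 0.1 in rESC and at 1 or more in R_NSCP1 was found 12 times (14.1% of 85) at 10 positions, against 12.5% of all listed transcripts. The opposite, under 0.1 in R_NSCP1 and at 1 or more in rESC, was also found 12 times (14.1%), at 8 positions, against 6.62% of all listed transcripts. The first count is near the share in the table. The second is above it, and 8 of those 12 isoforms lay at 4 positions that held 2 each. Among the 8 are 4 isoforms, at 2 positions, with values identical to those of another isoform of the same position. Whether these are transcripts listed again was not tested, and the count above the share in the table rests in part on them.

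At 7 of the 10 positions the isoform that was near 0 in rESC had a partner at 0.1 or more in both libraries. The highest was at chr11:24616623-24782876 (minus strand), where one isoform was listed at 0 in rESC and stood at 22.6 in R_NSCP1, beside a partner at 11.8 and 37.9. At chr14:9171966-9182049, an isoform at 0.0967 and 16.8 stood beside one at 494.7 and 947.6, and made up 1.74% of the position in R_NSCP1. At chr11:55266788-55271354 (minus strand), an isoform at 1.18e-05 and 3.59 stood beside one at 0.620 and 3.49. This last position was an even mix in R_NSCP1, with 50.7% for the isoform that stood near 0 in rESC.

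At 2 positions all isoforms were near 0 in rESC and above 1 in R_NSCP1. At the longest position, chr15:48765322-49525113, the isoforms stood at 0 and 0.0311 in rESC and at 2.48 and 2.30 in R_NSCP1. At chr6:85350303-85372036 (minus strand), they stood at 0 and 0.0739 in rESC and at 3.77 and 4.22 in R_NSCP1. Both places were close to even mixes in R_NSCP1, with main shares of 51.8% and 52.8%. A scaffold position of 2281 bp was similar, with isoforms at 0.0559 and 0.0553 in rESC and 0.921 and 1.35 in R_NSCP1.

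In the other direction, 4 positions held an isoform near 0 in R_NSCP1 beside a partner at 0.1 or more in both libraries. At chr3:115703566-115704650, an isoform at 7.09 in rESC and listed at 0 in R_NSCP1 stood beside one at 144.0 and 77.8. The other places were those of chr1:6854133-6873486, chr20:30017827-30061786 and the 456 bp scaffold position given above.

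At 3 positions with signal in rESC all isoforms were listed at 0 in R_NSCP1. At chrX:36077072-36092630 (plus strand) the isoforms stood at 12.8 and 8.94 in rESC. At chr1:66672597-66674522 (minus strand) they stood at 4.41 and 6.43. At chr13:62146099-62153246 (minus strand) both stood at exactly the same value, 3.87. At chrX:84659950-84662034 (plus strand) one isoform stood at 2.39 in rESC and at 0 in R_NSCP1, and the other at 0 and 0.00252, so this position too was almost without signal in R_NSCP1.

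Summed over isoforms, more of these positions were higher in rESC than in R_NSCP1. The share higher in rESC was near that of the table, and the share higher in R_NSCP1 was below it. Of 39 positions with a summed FPKM of at least 0.1 in one library, 14 (35.9%) were at least 2-fold higher in rESC on the log2(FPKM + 0.1) scale, against 30.3% of the 1354 such positions of the table. In R_NSCP1, 7 (17.9%) were at least 2-fold higher, against 34.6% in the table, and 18 lay within 2-fold. The median log2 difference, R_NSCP1 minus rESC, was -0.34, against 0.10 over the table. The median summed FPKM of these positions was 5.05 in rESC, against 2.37 over all positions of the table, and 2.85 in R_NSCP1, against 2.55. Each of the 40 is a sum over 2 to 4 isoforms, whereas most positions of the table hold a single transcript. The part that abundance has in the split was not tested.

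In total the 85 isoforms held 8.30% of all listed FPKM in rESC and 14.0% in R_NSCP1. Most of this was the position of chr14:9171966-9182049, with a summed FPKM of 494.8 in rESC and 964.4 in R_NSCP1. Without that position the sums were 430.2 and 280.1, so the direction of the total rests on it.

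Apart from the positions at or near 0 in R_NSCP1, the largest difference towards rESC among the sums was that of chr13:37293389-37298114, at 22.3 and 1.69, a log2 difference of -3.65. A 985 bp scaffold position followed, at 12.1 and 1.34 (-3.08), and its main isoform held 75.2% in rESC and 51.9% in R_NSCP1. At both places every isoform was lower in R_NSCP1. Towards R_NSCP1 the largest were chr6:85350303-85372036, at 0.0739 and 7.99 (5.54), chr15:48765322-49525113, at 0.0311 and 4.78 (5.22), the 2281 bp scaffold position, at 0.111 and 2.28 (3.49), chr11:55266788-55271354, at 0.620 and 7.08 (3.32), and chr11:24616623-24782876, at 11.8 and 60.5 (2.35). Of the 5 highest sums of rESC, 4 were lower in R_NSCP1 and that of chr14:9171966-9182049 was higher (0.96). The position chr3:115703566-115704650 stood at 151.1 and 77.8 (-0.96), chr14:11534628-11539436 at 33.1 and 9.58 (-1.78), the 456 bp scaffold position at 30.1 and 5.59 (-2.41), and chr6:74692339-74694772 (minus strand) at 22.8 and 11.1 (-1.03). At the last, both isoforms were lower in R_NSCP1, 13.6 against 8.06 and 9.24 against 3.03.

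**Figure D3:**
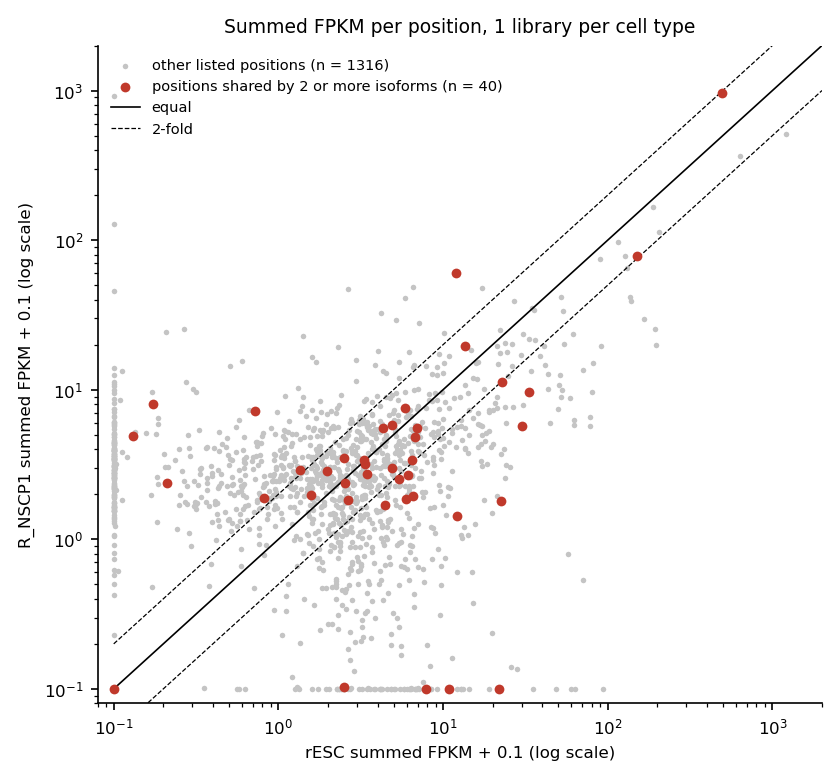
Summed FPKM plus 0.1 of each position in rESC (x) and R_NSCP1 (y), both on log axes, for the 40 positions with shared ends (red) and the other listed positions (grey); each point is 1 position in 1 library per cell type, and dashed lines mark 2-fold. Of the red points, 14 lie at least 2-fold towards rESC and 7 towards R_NSCP1. These are 35.9% and 17.9% of the 39 positions compared, against 30.3% and 34.6% over the table.

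Counted one by one, 32 of 77 isoforms (41.6%) lay 2-fold or more towards rESC, against 30.8% of all listed transcripts, and 21 (27.3%) lay 2-fold or more towards R_NSCP1, against 34.7%. Isoforms of 1 position share both ends and are not independent of each other. At 7 positions all isoforms lay 2-fold or more towards rESC and at 5 all were higher in R_NSCP1. At 11 positions some were higher in rESC and the rest within 2-fold, and at 7 some were higher in R_NSCP1 and the rest within 2-fold. At 6 all lay within 2-fold or at 0. An isoform at or near 0 in both libraries counted as within 2-fold, because 0.1 was added to each FPKM. Such isoforms were the rest at chr10:5603651-5620644, chrX:84659950-84662034 and chrX:131075789-131094064. These counts, and that of opposite directions below, were not taken over other groups of transcripts, so they have no background.

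At 4 positions isoforms differed by 2-fold or more in opposite directions. These were both positions of chromosome 20 described above, chr5:3204854-3206713 and chr6:109414280-109420492 (plus strand). At the last, the main isoform stood at 5.07 in rESC against 1.68 in R_NSCP1, the other at 0.219 against 0.728, and the main share was 95.9% and 69.8%.

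**Figure D4:**
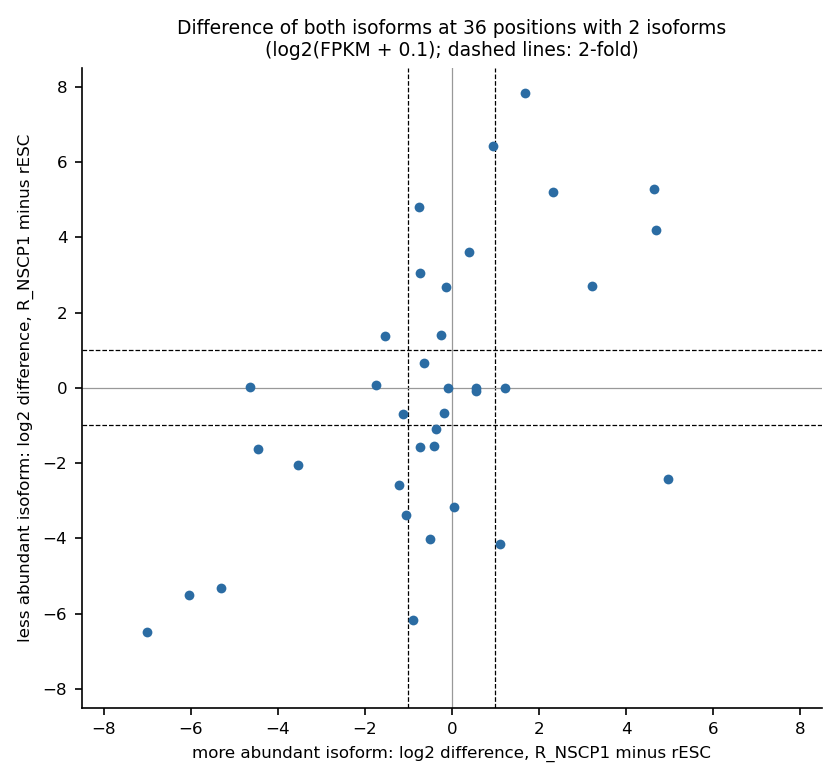
Log2 difference, R_NSCP1 minus rESC, of the more abundant isoform (x, by the sum over both libraries) and the less abundant isoform (y) at 36 positions with 2 isoforms, on the log2(FPKM + 0.1) scale; each point is 1 position and dashed lines mark 2-fold. Both isoforms are past 2-fold towards R_NSCP1 at 5 positions, towards rESC at 7, and in opposite directions at 3.

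Most of the remaining positions showed small differences or low levels. An exception among those listed next was chr17:6997497-7059096, whose summed FPKM was 2.70-fold higher in rESC (4.33 against 1.60). Its isoforms all lay 2-fold or more towards rESC. Shares moved by under 10 points with sums within 2-fold at chr12:26994103-27001136 (minus strand), where the isoforms stood at 2.03 and 3.78 in rESC and 1.89 and 5.57 in R_NSCP1, and at chr15:108513951-108518590 (minus strand), at 4.89 and 1.94 and at 4.28 and 1.19. At chr18:12622609-12768983 (plus strand) they stood at 2.46 and 2.35 in rESC and at 1.88 and 1.04 in R_NSCP1. At several more places a minor isoform was listed at 0 in one library and was low in the other. It was listed at 0 in rESC and stood under 1 in R_NSCP1 at chr18:41841724-41858158 (minus strand, 0.729, beside 6.65 and 3.97) and at chr4:27621511-27647376 (plus strand, 0.537, beside 1.49 and 1.33). It stood under 1 in rESC and was listed at 0 in R_NSCP1 at chr11:46898399-46901684 (plus strand, 0.802, beside 2.54 and 2.61), at chr17:6997497-7059096 (minus strand, 0.502, beside 3.83 and 1.60) and at chr4:44007049-44009282 (plus strand, 0.189, beside 2.35 and 1.74).

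Elsewhere the minor isoform was at or near 0 in both libraries. At chr20:88031606-88033580 the minor isoform stood at 0.00041 and 0.000414 beside 1.88 and 2.78. At chr10:5603651-5620644 it stood at 0 and 0.00581 beside 6.44 and 1.84, a summed log2 difference of -1.75. At chr17:74650644-74654233 it was listed at 0 in both beside 2.44 and 2.30, and at chrX:131075789-131094064 (minus strand) it was listed at 0 in both beside 0.717 and 1.80.

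Many of these positions lay within larger groups of listed transcripts, though the share over all positions of the table was not counted. At 19 of the 40 positions other lncRNAs of the same strand overlapped, 26 in all, of which 10 shared the lower coordinate, 10 the higher and 6 neither. These lncRNAs together exceeded the position's own summed FPKM at 13 of the 19 in rESC and at 12 in R_NSCP1. The sums above are therefore those of the isoforms with shared ends and not of the whole gene.

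Adding the overlapping lncRNAs, a choice made after the data were seen, gave 15 of 40 positions at least 2-fold higher in rESC and 5 in R_NSCP1. No share over all positions of the table was taken for this sum, so the split cannot be set against a background. At chrX:131075789-131094064 the direction turned: the position alone stood at 0.717 and 1.80, and with 3 overlapping lncRNAs at 21.7 in rESC and 10.2 in R_NSCP1. It turned at chr4:27621511-27647376 as well, from 1.49 and 1.87 alone to 11.1 and 5.23, a log2 difference of 0.31 that became -1.06. At chr5:74292442-74295832 a log2 difference of 1.10 became -0.18, and at chr1:6854133-6873486 a difference of -1.19 became -0.21. At chrX:36077072-36092630 the overlapping lncRNA, from 36079603 to 36097981, stood at 18.8 in rESC and was also listed at 0 in R_NSCP1. At the other positions listed at 0 in R_NSCP1 an overlapping lncRNA kept some signal: 2.95 in rESC and 0.512 in R_NSCP1 at chr1:66672597-66674522, and 6.65 and 0.639 at chr13:62146099-62153246. At chrX:84659950-84662034 an overlapping lncRNA with the same end stood at 5.52 and 3.66. At chr16:31884026-31895082, where both isoforms were listed at 0 in both libraries, a shorter lncRNA with the same end stood at 3.64 and 5.77.

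Isoform order also depended on this wider set. With overlapping lncRNAs counted as further isoforms, the main one differed at 11 of 34 positions. At chr6:85350303-85372036, 2 shorter lncRNAs shared the lower coordinate: one stood at 1.49 in rESC against 0 in R_NSCP1, the other at 0.103 against 3.62. The former was thus listed above 0 in rESC only, and the latter was higher in R_NSCP1. At chr6:109414280-109420492 a lncRNA that began 21 bases later stood at 5.70 in rESC and 9.52e-05 in R_NSCP1, while the main isoform of the position was lower by 3.01-fold. At chr18:12622609-12768983 a lncRNA with the same lower coordinate stood at 4.71 and 0.0958.

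In the authors' deposited table, 13 of the 85 isoforms (15.3%) were called up in R_NSCP1 and 9 (10.6%) down, against 16.0% and 9.05% of all listed transcripts. These shares are near those of the table. By the calls of the authors' deposited table, all isoforms were up at 4 positions, all were down at 2, some but not all were up at 5, some but not all were down at 4, and none was called at 25. In the authors' deposited table the isoform of chromosome 3 at 7.09 and 0 and its partner at 144.0 and 77.8 were both called down, whereas both isoforms of chr1:66672597-66674522, at 4.41 and 6.43 in rESC and 0 in R_NSCP1, were not called.

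MeDIP peaks were called at few starts of these transcripts. A peak lay within 1000 bp of the start at 4 of the 40 positions (10%) in both cell types, against 4.13% of all positions, at 1 (2.50%) in R_NSCP1 only, against 5.68%, and at none in rESC only, against 1.11%. The position with a start peak in R_NSCP1 only was that of chr15:108513951-108518590, with a peak from 108517694 to 108517963, where the sums were 6.83 and 5.47 and the shares moved by 6.63 points. At chr13:62146099-62153246, listed at 0 in R_NSCP1, peaks were called 870 bp from the start in rESC and 880 bp in R_NSCP1, with fold enrichments of 6.74 and 7.81 in the authors' peak lists. At chr8:71374530-71379844 they lay 878 and 335 bp from the start. The other 2 were scaffold positions. None of the 6 positions with a different main isoform on assembled chromosomes had a peak at its start in either library, and the scaffold position among the 7 had one in both. Of all 40 positions, 35 (87.5%) had no start peak in either library, against 89.1% of all positions of the table, so the 7 are not set apart by this.

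Within the bodies, peaks were called in both cell types at 9 positions (22.5%, against 15.7% of all positions), in R_NSCP1 only at 7 (17.5%, against 12.3%) and in rESC only at 1 (2.50%, against 2.58%). Peaks were called mostly in longer positions: 12 of the 16 positions of at least 10000 bp had one, and 5 of the 24 shorter ones. The positions of the whole table were not split by span in this way. In all, 24 rESC and 45 R_NSCP1 peaks lay in the bodies, where the whole lists held 48838 and 83528. The position with a peak in rESC only was that of chr20:30017827-30061786, with peaks from 30042376 to 30042625 and from 30053894 to 30054183. The other exchange, chr20:85425246-85589866, held 6 rESC and 14 R_NSCP1 peaks, and the position of chr15:48765322-49525113, near 0 in rESC, held 7 and 11. At chrX:36077072-36092630, listed at 0 in R_NSCP1, a peak was called in R_NSCP1 only, from 36078750 to 36078998. The peak lists were called without a control, and the lncRNA table and the peak lists were assumed to use one genome build.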

How the data were processed

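lncRNA levels are FPKM values made and deposited by the authors, 1 library per cell type. No source used here states their assembly, coding filter or quantification. TopHat2 2.0.11, BWA 0.7.7 and MACS2 are the tools in the submitters' processing notes, with no role given. The depth is unknown, since the FPKM values are not multiples of a step and go down to 1.48e-06. The deposited p-value was not used, except through the authors' calls, and its test is not stated. Per the file headers, MACS 2.1.0.20150731 called the peaks of each library alone, without a control and at a q cutoff of 0.01, on 8690541 rESC and 9071243 R_NSCP1 tags. The pileup signal and the −log10 p of the deposited peak lists were not used, the −log10 q served as a filter in an alternative, and the fold enrichment is a ratio to local background as deposited by the authors. Coordinates are as in the files, and no source used here states the genome build.

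Rows were grouped by chromosome, strand, start and end. Shares were compared where the summed FPKM was at least 1 in both libraries, and sums where it was at least 0.1 in one, on the log2(FPKM + 0.1) scale. The start is the lower coordinate on the plus strand and the higher on the minus strand. Groups sharing one end left out the members and both excluded intervals, chr7:164600000-165000000 and chr2:106500000-106900000. The chromosome 2 interval held no rows sharing both ends. Positions named in full were those with a different main isoform, the 10 largest changes of share, the 5 highest sums per library, the 5 largest differences each way among positions with a summed FPKM of at least 1 in one library and those with 3 or more isoforms; the others are named after their values were seen. Members and lists were chosen with earlier results of these data known. Grouping, shares and differences were tested on simulated data, where 200 of 200 planted positions were recovered. Python 3.11.15, numpy 2.4.6, pandas 2.3.3 and matplotlib 3.10.9 were used. The mixed input was not analysed here.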

Additional observations from a re-analysis of the deposited data

How the results depend on the processing

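With 1 library per cell type no replicate could be left out. No paired analysis was possible because each group had 1 library. Of 48 alternative values, 30 stayed within 1.5 times the count or equal to the value given above, 18 moved and 0 reversed. At a 4-fold threshold 7 positions were higher in rESC by summed FPKM and 5 in R_NSCP1, so these counts lay closer together than at 2-fold. All isoforms were higher in rESC at 4 positions and in R_NSCP1 at 4. No share over all positions of the table was taken at 4-fold. Isoforms in opposite directions were found at 2 positions at this threshold, and also at 2 with a pseudocount of 1. The count of positions whose main isoform differed, 7, was the least stable. It was 11 of 36 with any summed FPKM above 0 in both libraries, 1 of 9 at a summed FPKM of at least 5 in both, 1 of 13 with a main isoform at least 2-fold above the next in both, and 11 of 34 with overlapping lncRNAs counted as isoforms. The median change of share, 23.2 points, was 23.1 at a summed FPKM of at least 0.1, 13.2 at 5 and 17.6 without scaffolds. The largest change, 89.1 points, was 65.9 at a summed FPKM of at least 5 and 54.0 without positions that had an isoform listed at 0. The median main share was 76.0% in rESC at a summed FPKM of at least 0.1, and among positions with exactly 2 isoforms it was 86.5% in rESC and 73.7% in R_NSCP1. Within 5000 bp of the start, 8 of the 40 positions had a peak in rESC and 14 in R_NSCP1, where the whole lists held 48838 and 83528 peaks. No share over all positions of the table was taken at this distance. Fewer positions pass the stricter settings by construction; for other moves the cause was not tested. The settings with overlapping lncRNAs, identical values counted once, a change of at least 25 points and shares without scaffolds were chosen after the data were seen. As the depth is unknown, no interval could be set on any share.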
